A study of Mus musculus with 18 samples.

Results

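The ErbB family comprises the receptor genes Egfr, Erbb2, Erbb3 and Erbb4 and, among the ligand genes, Areg, Ereg, Hbegf, Tgfa, Btc and Nrg1. These 10 genes were followed in sorted mouse thyroid cells through every array probe whose gene name in the scanner files was one of them. This gave 29 of the 41174 probes on the array and 10 of its 27962 gene names.

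The thyroid cells came from C57BL/6 mice of both sexes, and the labels give no ages and do not say whether animals were pooled. Glands were dispersed with collagenase and dispase, and the cells were kept in culture for 2 days before sorting by Hoechst dye exclusion. Cells that pumped the dye out, a property blocked by verapamil, formed the side population, and the remaining cells formed the main population. There were 4 groups on 18 arrays: side population after partial thyroidectomy (TSP, n = 6), side population without surgery (CSP, n = 6), main population after partial thyroidectomy (TMP, n = 3) and main population without surgery (CMP, n = 3). All groups had therefore been digested, cultured, stained and sorted in the same way. By design they differed in the surgery and in the sort gate, but they also differed in slide. CSP lay on slides 1, 3 and 4 and CMP on slides 2, 4 and 5, sharing slide 4 alone. TSP lay on slides 1, 3 and 5 and TMP on slides 2, 4 and 5, sharing slide 5 alone. Slide and sort gate are thus partly confounded in the comparisons of side with main population. Each sample, labelled with Cy5, was hybridised against 1 common Cy3-labelled reference, a commercial pool of total RNA from several Swiss Webster mouse tissues, without a dye swap. Each value is the log2 of the sample's signal divided by that of the reference, so that 0 means equal signal in both. A ratio says how a probe moves between samples, and levels of different probes are not compared.

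ErbB receptors are tyrosine kinases of the cell surface. A ligand with an EGF-like domain binds the outer part of Egfr, Erbb3 or Erbb4, receptors pair, and the paired kinases start the Ras-MAP kinase and PI3 kinase cascades. Erbb2 has no known ligand of its own and acts as a partner, whereas Erbb3 has a weak kinase and depends on a partner, most often Erbb2, to answer neuregulins. The ligands are made as membrane-anchored precursors and are released by ADAM proteases. In cultured thyrocytes of dog, pig and sheep, EGF is a classical growth signal that also lowers differentiated functions such as iodide uptake.

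Probe sequences, all of 60 bases, are shown to compare the receptors in a stretch they share and to show where the Nrg1 probes lie, with coordinates of mouse build mm7 as the scanner files give them. An exon annotation of that build was not used here. The first 3 lie in the part that encodes the kinase. They are dimmer than the brightest probes of their genes and are written with capitals at the bases identical in all 3, at the ungapped alignment with the most matches.
Erbb3 A_51_P342050, chr10:128073907-128073966, minus strand: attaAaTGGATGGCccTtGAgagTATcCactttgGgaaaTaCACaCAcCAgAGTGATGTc
Erbb2 A_51_P216179, chr11:98543549-98543608, plus strand: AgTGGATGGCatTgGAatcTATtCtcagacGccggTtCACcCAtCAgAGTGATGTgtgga
Erbb4 A_51_P396034, chr1:68321019-68321078, minus strand: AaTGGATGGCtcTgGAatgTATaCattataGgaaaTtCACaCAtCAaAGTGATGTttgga

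Over the 56 positions where the 3 probes face each other, 33 bases (58.9%) were shared by all. The Erbb3 and Erbb4 probes shared 44 of 56 bases, the Erbb2 and Erbb4 probes 42 of 60, and the Erbb2 and Erbb3 probes 35 of 56. Cross-hybridisation between the receptors was not tested. The Erbb4 probe was not well above background on any of the 18 arrays, whereas the Erbb3 probe was on 8 and the Erbb2 probe on 5. A further Erbb3 probe, A_51_P488243, shares 40 bases with A_51_P342050, and these 2 are not independent readings.

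The next 3 probes belong to Nrg1, which carried most of the called differences. The first lies in the coding part of the EGF-like domain, the stretch that binds the receptor, and the second runs from the end of that domain into the stretch before the membrane. Their capitals mark TGC or TGT triplets, the codons of cysteine, read from base 2 of the first and from base 1 of the second. The last lies in the coding part of the cytoplasmic tail and has no marked bases.
Nrg1 A_52_P369769, chr8:30617036-30617095, minus strand: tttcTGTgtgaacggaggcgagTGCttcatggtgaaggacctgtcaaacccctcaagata
Nrg1 A_52_P369761, chr8:30598926-30605426, minus strand, across an intron: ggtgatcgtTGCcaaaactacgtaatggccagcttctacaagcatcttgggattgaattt
Nrg1 A_52_P52635, chr8:30590010-30590069, minus strand: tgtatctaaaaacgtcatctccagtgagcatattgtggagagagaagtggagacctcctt

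The share of spots with Cy5 signal clearly over background ran from 38.8% to 72% per array and was lower on slides 1 and 5. Arrays TSP 1 and TSP 2 went against their label. Their mean log2 ratio over 8 epithelial markers (Epcam, Cdh1, keratins and claudins) was 4.38 and 4.26, against 0.15 to 1.17 on TSP 3 to TSP 6, 3.75 to 4.46 in TMP and 3.80 to 4.27 in CMP. They are kept in their group, and each result that rests on TSP is also given without them. The thyroid hormone precursor gene Tg was well above background on all 18 arrays. Of 9 follicular cell markers, 1 to 8 were above background on each side population array, against 8 to 9 on each main population array.

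Of the 29 member probes, 23 had Cy5 signal well above background on 3 or more arrays and entered the test. Every member gene had at least 1 tested probe. Erbb2 A_51_P216179, Erbb3 A_51_P342050 and A_51_P488243, and Nrg1 A_52_P158772 passed only with main population arrays or TSP 1 and TSP 2. On the other side population arrays they were above background on 1, 1, 0 and 2. A lower side population value on these probes is therefore not independent support. The other 6, never well above background, were Egfr A_52_P5855, Erbb3 A_52_P133607 and A_51_P414813, Erbb4 A_52_P608535 and A_51_P396034, and Btc A_51_P138429. Their values are not used to compare groups. The test was a limma model over all 29758 probes that passed this filter, with 4 group means, and a call is a Benjamini-Hochberg adjusted p under 0.05 over all these probes.

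Without surgery, the neuregulin gene Nrg1, the receptor gene Erbb3 and the ligand gene Tgfa were lower in the side population than in the main population. Calls were made for 7 of the 23 tested probes, all of them lower in CSP: 5 of 5 for Nrg1, 1 of 3 for Erbb3 and 1 of 2 for Tgfa. Of all probes tested 13.2% were called, 6.64% as lower and 6.59% as higher. An unadjusted p under 0.05 was reached by 13 of the 23, and by 27.8% of all probes. The median difference of the 23 probes was -0.77, against 0.04 over all probes tested. The 23 are not independent, as 5 are probes of Nrg1 and some of Erbb3 overlap. Of the 10 genes, Nrg1, Erbb3 and Tgfa were called by their brightest probe, where 14.4% of all genes were. CSP and CMP did not overlap on 9 of the 23, where 18.9% of all probes did not. With TSP 1 and TSP 2 left out of the fit, 11 of the 23 were called, again all lower, where 17.3% of all probes were called, 8.41% as lower. Fewer cells of a type and less RNA per cell cannot be told apart in such bulk RNA.

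Markers of several cell types moved with the populations. All 8 epithelial markers and 7 of 9 follicular markers were lower in CSP than in CMP, whereas 7 of 8 endothelial and 6 of 8 fibroblast markers were higher. The mean log2 ratio over the epithelial markers ranged from -1.26 to 2.69 in CSP, against 3.80 to 4.27 in CMP. Over the follicular markers it ranged from 0.13 to 1.98 in CSP, against 2.71 to 3.37 in CMP, and over the endothelial markers from 0.42 to 1.78 in CSP, against -2.25 to -1.67 in CMP. CSP 6 held the highest epithelial and follicular values of CSP, 2.69 and 1.98. The other CSP arrays reached at most 1.36 and 0.29, so CSP 6 stood nearest to CMP on these lists. Over the fibroblast markers all CSP arrays, from -1.75 upwards, stood above the CMP arrays, at -4.03 to -3.30. The basal epithelial list had 1 of 3 markers lower in CSP. Of 8 macrophage and leukocyte markers 1 was higher and 1 lower, as were 1 and 1 of 5 smooth muscle and pericyte markers. None of 4 Schwann cell markers, a cell type known for Erbb3 and for neuregulin signalling, was called, with list means from -1.65 to -1.34 in CSP and -1.72 to -0.88 in CMP. None of 2 C cell markers was called. The part of cell composition in the ErbB differences was not tested.

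**Figure D1:**
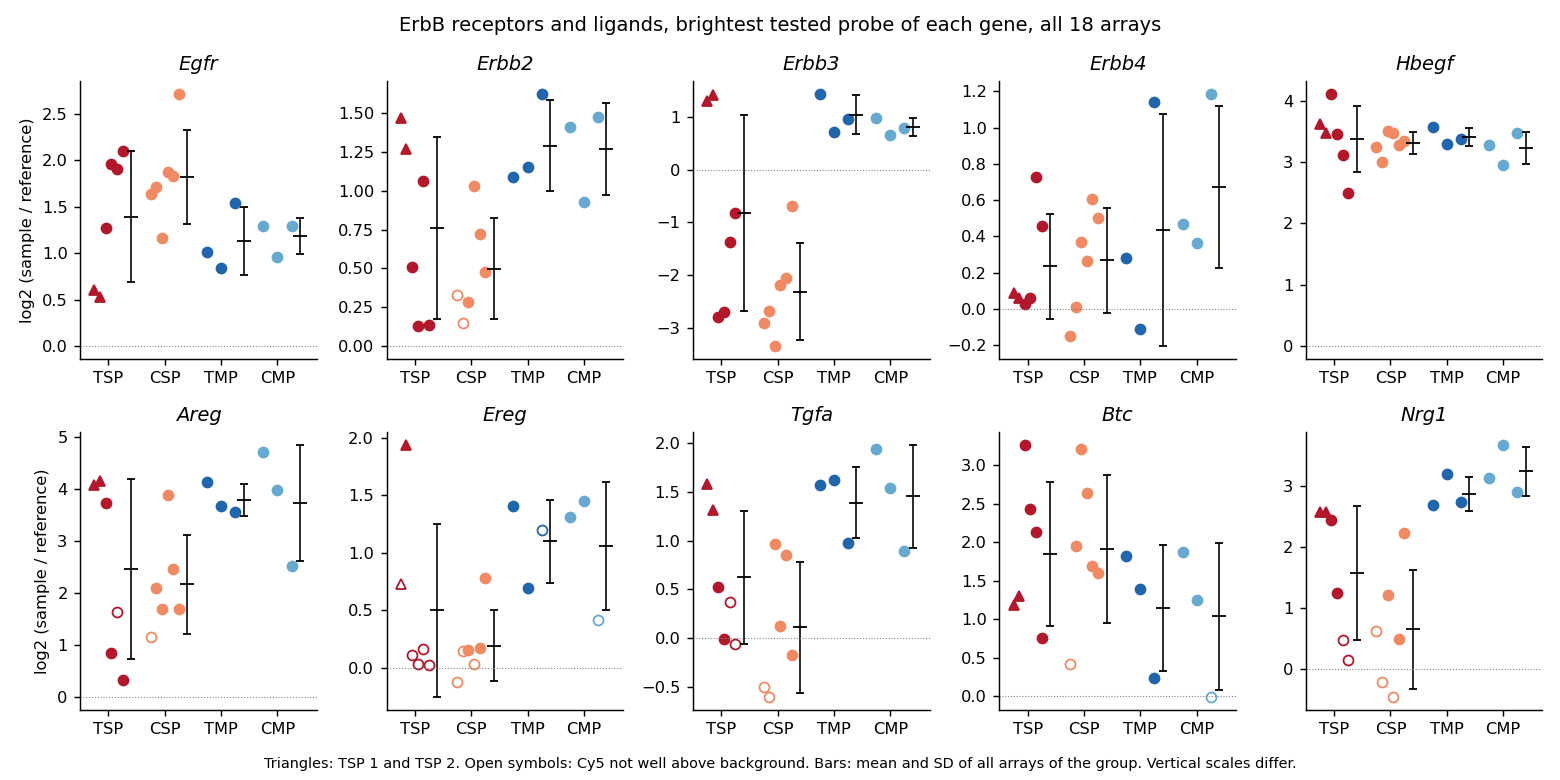
Log2 ratio of sample over reference (vertical axis, scales differ) for the brightest tested probe of each of the 10 genes, in TSP, CSP, TMP and CMP (left to right). Each point is an array, triangles are TSP 1 and TSP 2, open symbols are arrays on which Cy5 was not well above background, and bars are the mean and SD of all arrays of the group. Erbb3 and Nrg1 stand lower on most side population arrays than on the main population arrays. The triangles lie inside the range of TMP and above CMP for Erbb3, and just below both groups for Nrg1. Hbegf stays between 2.50 and 4.11 on every array.

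Among the receptors, Erbb3 differed most. Its brightest probe, A_52_P432949 (chr10:128069461-128069520, named in the files after a predicted transcript), was bright on all 18 arrays. It has no match in the RefSeq table used here, and its mean log2 intensity was 12.3, against 6.74 to 7.17 for the other 4 Erbb3 probes, so that a difference of the size given here rests on this probe alone. It read -3.33 at the lowest, -2.43 at the median and -0.69 at the highest (CSP 6) of the 6 CSP arrays, against 0.98, 0.65 and 0.79 in CMP. The groups did not overlap. The difference was -3.11 ± 0.78 (SE), or 8.65-fold lower in CSP, with an adjusted p of 0.0156 (limma).

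After surgery the same Erbb3 probe read -2.79, -2.70, -1.36 and -0.82 on TSP 3 to TSP 6, against 1.44, 0.72 and 0.96 in TMP. TSP 1 and TSP 2 read 1.29 and 1.41, inside the range of TMP. With all 6 TSP arrays the difference from TMP was -1.87 ± 0.78, adjusted p = 0.342. Without TSP 1 and TSP 2 it was -2.96 ± 0.53, or 7.76-fold lower, adjusted p = 0.00105. By group mean the order was TMP, CMP, TSP and CSP. TMP and CMP overlapped, as did TSP and CSP.

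The 2 overlapping Erbb3 probes of the kinase region were dim. A_51_P342050 read between -0.18 and 0.48 in CSP, where 1 of 6 arrays was above background, against 0.84, 1.87 and 1.09 in CMP, where 2 of 3 were. The groups did not overlap, and the difference of -1.17 ± 0.40 had an adjusted p of 0.0598. It passed without TSP 1 and TSP 2 in the fit, at 0.00698, and with the slide as a block (-1.77, adjusted p = 0.00192). On TSP 3 to TSP 6 the probe was on no array above background, and TMP, with 0.42, 1.75 and 1.04, was at least 1.48-fold higher (adjusted p = 0.0184 without TSP 1 and TSP 2). Such a lower bound sets the mean Cy5 signal over all arrays of the brighter group against a floor on the arrays of the dimmer one. The floor is the dimmest signal still well above background on an array, or the probe's own signal where that was higher. The bound has no standard error, and the adjusted p beside it belongs to the log2 ratio. TSP 1 and TSP 2 read 1.57 and 1.44 on this probe.

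For A_51_P488243 no CSP array was above background, against 2 of 3 CMP arrays. By that bound, whose mean includes the CMP array not above background, CMP was at least 1.23-fold higher. Its adjusted p was 0.0838, and 0.0272 without TSP 1 and TSP 2 or 0.00708 with the slide as a block. The probe passed the filter with 2 CMP, 1 TMP and 1 TSP array, so that these values are not independent support for a lower level in CSP.

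Erbb2, the shared partner receptor, was lower in CSP by a smaller margin that missed the threshold. Its brighter probe, A_52_P49250, read from 0.15 through a median of 0.40 to 1.03 in CSP, against 1.41, 0.93 and 1.47 in CMP, and 1 CSP array reached into the range of CMP. The difference was -0.77 ± 0.30, adjusted p = 0.10. On TSP 3 to TSP 6 it read 0.51, 0.13, 1.06 and 0.13, against 1.09, 1.15 and 1.63 in TMP, all TSP values below all TMP values. That difference was -0.83 ± 0.28, adjusted p = 0.0651 without TSP 1 and TSP 2, which read 1.47 and 1.27.

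The kinase probe of Erbb2, A_51_P216179, was above background on 1 of 6 CSP and 2 of 3 CMP arrays. It read between -0.30 and 0.01 in CSP, against 0.71, 0.57 and 0.41 in CMP. The groups did not overlap, and the difference of -0.69 ± 0.24 had an adjusted p of 0.0636. It was 0.0177 without TSP 1 and TSP 2 and 0.0453 with the slide as a block. With both changes together the difference was -0.58 and was not called (adjusted p = 0.077). The probe passed the filter with 2 CMP, 2 TMP and 1 CSP array, so that these values too are not independent support.

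**Figure D2:**
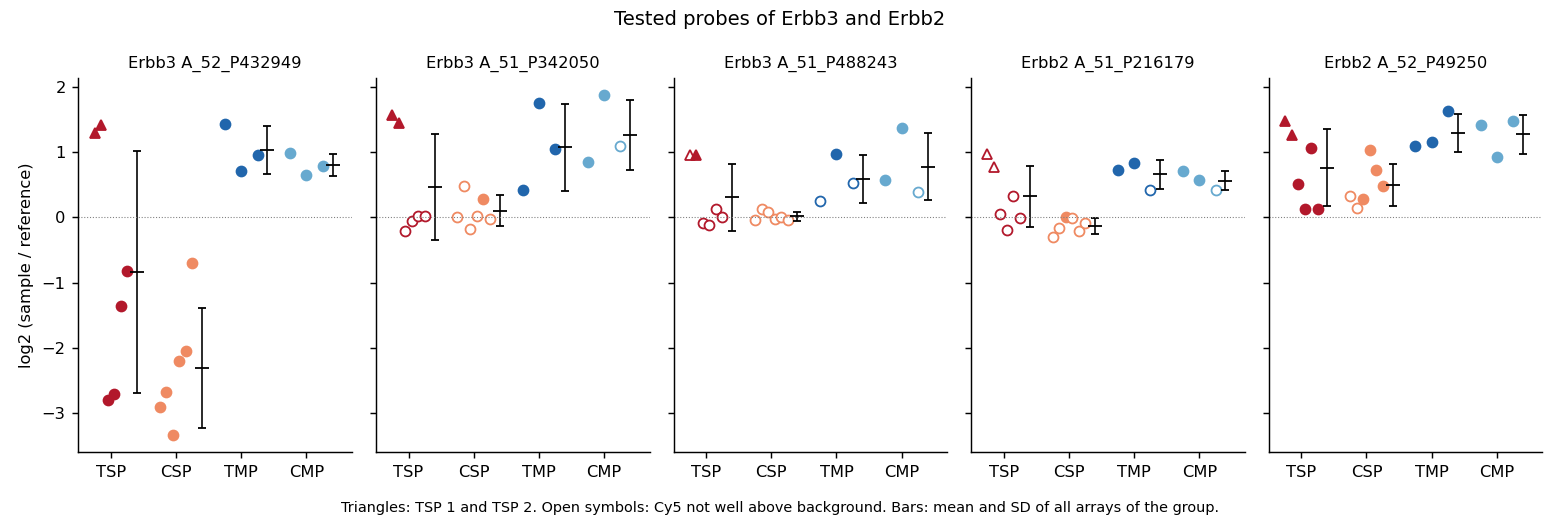
Log2 ratio of sample over reference for the 3 tested probes of Erbb3 and the 2 of Erbb2, by group (TSP, CSP, TMP, CMP), drawn as in the plot of the 10 genes. On Erbb3 A_52_P432949 the CSP arrays lie between -3.33 and -0.69 and the CMP arrays between 0.65 and 0.98, and most side population points of the 2 kinase-region probes of Erbb3 are open, near 0.

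Egfr, the receptor of EGF, Tgfa and amphiregulin, gave no call in any comparison, and its probes did not move together. The files name 2 tested probes after transcript variant 1 (A_52_P106259 and A_52_P674338), 2 after variant 2 (A_51_P392242 and A_52_P56471) and 1 after a cDNA clone (A_52_P175190). The brightest, A_52_P106259, read from 1.16 through 1.78 to 2.72 in CSP, against 1.29, 0.96 and 1.30 in CMP. The difference was 0.64 ± 0.37, adjusted p = 0.273. With the slide as a block it was 1.24, adjusted p = 0.021, the only call above 0 for a member in that fit. TSP 3 to TSP 6 read 1.27, 1.97, 1.91 and 2.10, against 1.01, 0.84 and 1.54 in TMP, a difference of 0.68 ± 0.32 with an adjusted p of 0.193 without TSP 1 and TSP 2.

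The other variant 1 probe of Egfr went the other way, with -0.42 ± 0.37 for CSP minus CMP, and the variant 2 probes gave 0.41 ± 0.36 and 0.38 ± 0.30. Their adjusted p values were between 0.452 and 0.498. The clone probe read from -0.98 to 0.03 in CSP, against 0.39 and 0.69 on the 2 CMP arrays that had a value, a difference of -1.02 ± 0.37 with an adjusted p of 0.0778. The spot of the CMP 3 array was marked as faulty by the scanner software.

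Erbb4, the other neuregulin receptor, was measured by 1 tested probe, A_51_P283698. It read from -0.15 through 0.32 to 0.61 in CSP, against 0.47, 0.36 and 1.19 in CMP, and the difference was -0.41 ± 0.28, adjusted p = 0.377. The 4 group means lay between 0.24 and 0.67, and neighbours in that order overlapped. The other 2 Erbb4 probes were never above background, so that the values of this gene rest on 1 probe. The tested probe had a mean log2 intensity of 10.5, against 6.69 and 6.8 for those 2. All are named after the same predicted transcript, which has no match in the RefSeq table used here. Why the probes differ was not tested.

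Among the ligands, Nrg1 showed the broadest difference. Neuregulin 1 is a ligand of Erbb3 and Erbb4 and, through several promoters and splice forms, exists as many isoforms. Its 5 probes lie along the gene from chr8:30617036-30617095 to chr8:30583053-30583112, on the minus strand. On the brightest, A_52_P369769 in the EGF-like part, CSP read from -0.47 through 0.56 to 2.23, against 3.15, 3.69 and 2.91 in CMP. No CSP array reached the lowest CMP array. The difference was -2.60 ± 0.58, or 6.08-fold lower, adjusted p = 0.0104.

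The probe at the end of that domain, A_52_P369761, differed by -2.44 ± 0.55 (adjusted p = 0.011) and the tail probe A_52_P52635 by -2.42 ± 0.52 (adjusted p = 0.0099). The remaining probes, A_52_P328064 and A_52_P158772, differed by -2.45 ± 0.45 (adjusted p = 0.00894) and -1.99 ± 0.49 (adjusted p = 0.0148). CSP and CMP did not overlap on 4 of the 5 probes. On A_52_P158772, CSP 4 at 0.68 stood above CMP 3 at 0.36. Between 1 and 3 of the 6 CSP arrays were well above background on each probe. As normexp values of dim spots are drawn towards equal signal in both channels, such differences may be understated.

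**Figure D3:**
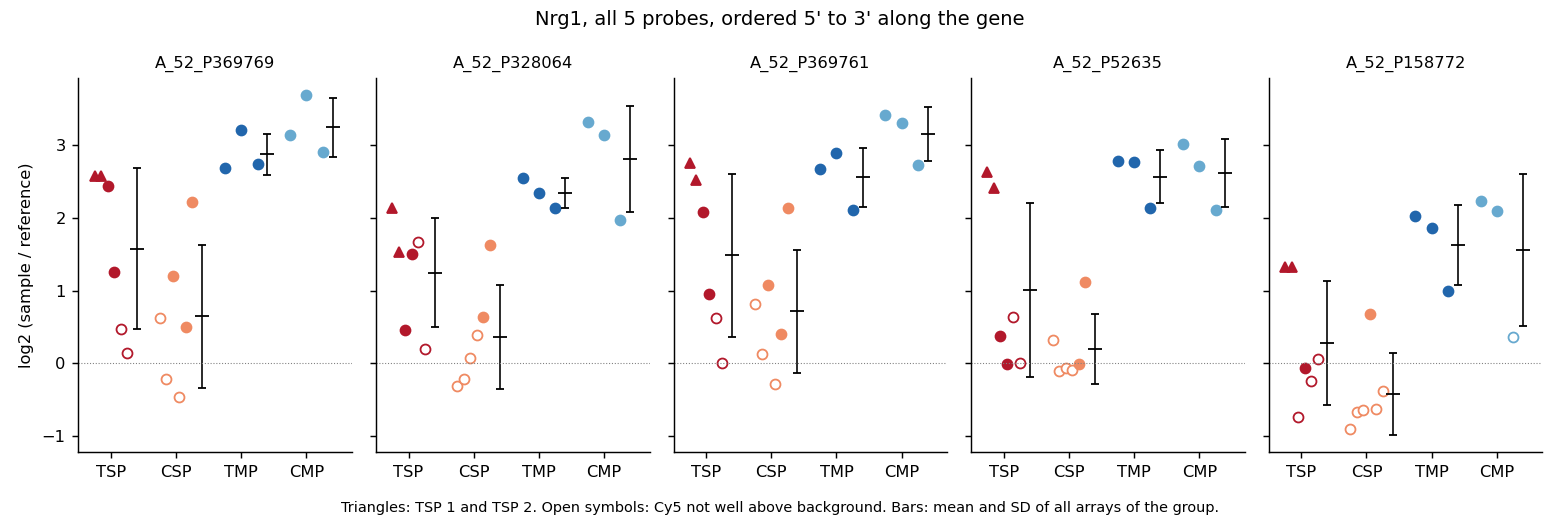
Log2 ratio of sample over reference for the 5 Nrg1 probes, ordered from the 5′ to the 3′ side of the gene, by group (TSP, CSP, TMP, CMP), with symbols as in the plot of the 10 genes. Most main population arrays stand at the top of each panel, and TSP 1 and TSP 2 mostly stand near them. Exceptions include CMP 3 at 0.36 on A_52_P158772. On A_52_P328064, TSP 2 at 1.53 stands below CSP 6 at 1.63 and TSP 5 at 1.67. CSP 6 is the highest of the CSP arrays on 4 of the 5 probes.

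After surgery, Nrg1 A_52_P369769 read 2.44, 1.25, 0.47 and 0.15 on TSP 3 to TSP 6, against 2.70, 3.21 and 2.74 in TMP. TSP 1 and TSP 2 both read 2.58. All 6 TSP arrays were below all TMP arrays, and the difference with all 6 was -1.30 ± 0.58, adjusted p = 0.366. Without TSP 1 and TSP 2 it was -1.80 ± 0.56, adjusted p = 0.043. The tail probe A_52_P52635 read at most 0.63 on TSP 3 to TSP 6, against 2.78, 2.78 and 2.14 in TMP, a difference of -2.32 ± 0.32 with an adjusted p of 0.000114. In that fit 4 of the 5 Nrg1 probes were called, and A_52_P328064, at -1.39 ± 0.46, had an adjusted p of 0.0575. By group mean the order of A_52_P369769 was CMP, TMP, TSP and CSP, and neighbours in that order overlapped, except TMP and TSP.

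Tgfa encodes a ligand of Egfr. On its brighter probe, A_51_P415126, CSP read from -0.60 through -0.02 to 0.97, against 1.94, 1.53 and 0.89 in CMP. A single CSP array, at 0.97, stood above the lowest CMP array. The difference was -1.34 ± 0.41, or 2.54-fold lower, adjusted p = 0.0369. Over fits without 1 CSP or CMP array the difference lay between -1.62 and -1.10. The call was lost without CSP 1, CSP 2, CSP 4 or CSP 6 (adjusted p of 0.0532 to 0.0705) and without CMP 1 (0.185) or CMP 2 (0.123). It was also lost with the replicate number as a block (0.0852). With the slide as a block and without TSP 1 and TSP 2 the difference was -1.02, again without a call (0.0623). TSP 3 to TSP 6 read 0.53, -0.01, 0.38 and -0.05, against 1.57, 1.62 and 0.97 in TMP, and the difference of -1.18 ± 0.38 had an adjusted p of 0.0495 without TSP 1 and TSP 2. Those arrays read 1.58 and 1.31. The other probe, A_52_P555423, differed by -0.29 ± 0.31 between CSP and CMP (adjusted p = 0.597), with CSP 1 left out as a faulty spot, so that the Tgfa probes disagree in size.

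Areg encodes amphiregulin, a ligand of Egfr. Its probe A_52_P482897 (chr5:91129331-91129390) was well above background on 16 of 18 arrays, but the reference was on only 3, so that how far it stood over the reference is not well measured. It read from 1.16 through 1.89 to 3.87 in CSP, against 4.71, 3.98 and 2.51 in CMP. The difference of -1.57 ± 0.79 had an adjusted p of 0.205, and the groups overlapped. With the slide as a block it was -2.24, adjusted p = 0.082. With the replicate number as a block it was -2.09, adjusted p = 0.0356, but these numbers do not pair CSP with CMP arrays. TSP 3, at 3.73, stood with TMP (4.14, 3.68 and 3.55), whereas TSP 4, TSP 5 and TSP 6 read 0.84, 1.63 and 0.32. Without TSP 1 and TSP 2, at 4.07 and 4.15, the difference from TMP was -2.16 ± 0.71, adjusted p = 0.055.

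Hbegf encodes the heparin-binding ligand of Egfr and Erbb4. It was bright on every array and high over the reference, and it varied little. TSP read from 2.50 through 3.47 to 4.11, CSP from 3.01 through 3.31 to 3.50, TMP 3.58, 3.29 and 3.38, and CMP 3.27, 2.95 and 3.48. The group means were 3.38 ± 0.54 in TSP, 3.31 ± 0.18 in CSP, 3.42 ± 0.15 in TMP and 3.23 ± 0.26 in CMP (SD). The interval of CSP minus CMP was -0.48 to 0.63 around a difference of 0.07, so that a change beyond 1 log2 unit either way lay outside it. That sign turned under other scalings, as given with the processing alternatives.

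Btc encodes betacellulin, a ligand of Egfr and Erbb4, and had a positive difference that was not called. A_52_P672689 read from 0.42 through 1.82 to 3.21 in CSP, against 1.87, 1.25 and -0.01 in CMP. The groups overlapped, and the difference of 0.88 ± 0.59 had an adjusted p of 0.363. Without CMP 3 the difference was 0.36. On TSP 3 to TSP 6 it read 3.27, 2.43, 2.14 and 0.76, against 1.82, 1.39 and 0.23 in TMP (1.00 ± 0.64, adjusted p = 0.379 without TSP 1 and TSP 2).

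Ereg encodes epiregulin, a further ligand of Egfr and Erbb4, and its probes disagreed. A_51_P171215 differed by -0.04 ± 0.45 between CSP and CMP. A_51_P157223 read from -0.12 through 0.15 to 0.78 in CSP, against 1.31, 1.45 and 0.42 in CMP, with an adjusted p of 0.13, and 0.0267 without TSP 1 and TSP 2. On TSP 3 to TSP 6, A_51_P157223 was never above background. TMP, with 2 of 3 arrays above background, was at least 1.46-fold higher by the bound described for Erbb3 (adjusted p = 0.021 for the log2 ratio). The files place A_51_P157223 on the minus strand at chr5:91040155-91040214 and A_51_P171215 on the plus strand at chr5:91080900-91080961.

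After partial thyroidectomy the test gave no call for any probe on the array in TSP minus TMP with all arrays (12.4% had an unadjusted p under 0.05, and 5 of the 23 member probes did). The groups did not overlap on 2 of the 23 and on 3.74% of all probes. Without TSP 1 and TSP 2, 12.7% of all probes were called, 6.34% as lower, and 8 of the 23 member probes, all lower in TSP: 4 for Nrg1, 2 for Erbb3, 1 for Ereg and 1 for Tgfa. With the slide as a block in addition, 3 were called, namely Erbb3 A_52_P432949 (-2.11, adjusted p = 0.00429), Erbb3 A_51_P342050 (-1.18, adjusted p = 0.00567) and Nrg1 A_52_P52635 (-1.82, adjusted p = 0.00295). The other 3 of these 4 Nrg1 probes then had adjusted p values of 0.0614 to 0.144, Ereg 0.14 and Tgfa 0.0875. The share of all probes called with that block is not given here. TSP 3 to TSP 6 did not overlap with TMP on 12 of the 23, where 22.7% of all probes did not. The median difference of the 23 probes, which are not independent, was -0.61, against 0.02 over all probes. On the same arrays all 8 epithelial and 7 of 9 follicular markers were lower in TSP than in TMP, and 7 of 8 endothelial and 8 of 8 fibroblast markers were higher, all by the adjusted p. Of the smooth muscle and pericyte markers 3 of 5 were higher and 1 lower, of the macrophage and leukocyte markers 1 of 8 was higher and 3 lower, and 1 of 3 basal epithelial markers was lower, with no call among the Schwann and C cell markers. The part of these cell types in the differences was not tested.

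**Figure D4:**
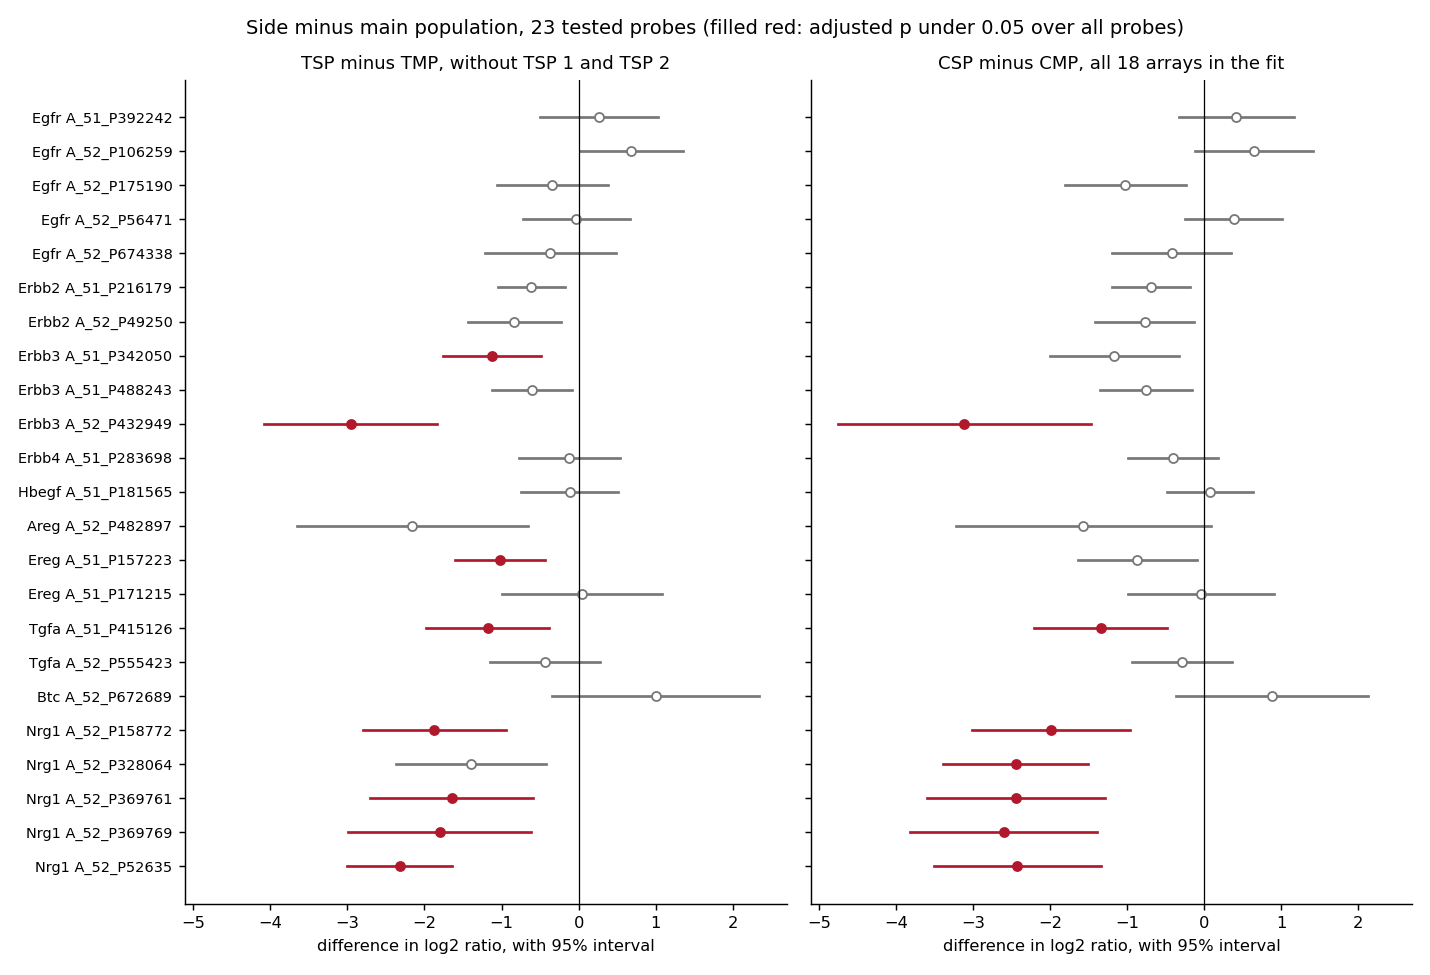
Difference in log2 ratio with its 95% interval (horizontal axis) for the 23 tested probes, TSP minus TMP without TSP 1 and TSP 2 (left) and CSP minus CMP with all arrays in the fit (right). Filled red points have an adjusted p under 0.05: 8 on the left and 7 on the right, all below 0, and the intervals of Hbegf and Btc include 0 in both panels.

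Surgery itself gave no call for these genes in either population. In TSP minus CSP and TMP minus CMP none of the 23 probes was called, where the share of all probes called was 0% in both. In TMP minus CMP the differences lay between -0.63 (Egfr A_52_P175190) and 0.33 (Ereg A_51_P171215), and no member probe had an unadjusted p under 0.05, against 0.114% of all probes. For Nrg1 A_52_P369769 that difference was -0.37 with an interval from -1.76 to 1.03, which includes a change of 1 log2 unit, or 2-fold, either way. That interval does not use the pairing of TMP and CMP by slide. Within the 3 pairs the probe differed by -0.45, -0.48 and -0.17, and A_52_P369761 by -0.75, -0.42 and -0.62, all lower in TMP, whereas the other 3 Nrg1 probes differed in both directions.

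In TSP minus CSP, 3 of the 23 had an unadjusted p under 0.05 (9.26% of all probes did), namely Erbb3 A_52_P432949 at 1.48 ± 0.64, Nrg1 A_52_P328064 at 0.88 ± 0.37 and Erbb2 A_51_P216179 at 0.45 ± 0.20. Without TSP 1 and TSP 2 these were 0.39 ± 0.45, 0.59 ± 0.39 and 0.17 ± 0.17, and none of the 23 had an unadjusted p under 0.05, where 3.71% of all probes did. The interaction of surgery and population gave no call, with 1 of the 23 at an unadjusted p under 0.05 (1% of all probes).

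Arrays of 1 slide allow some comparisons within it. On slide 4, CSP 5 and CSP 6 against CMP 2 gave -2.02 for Erbb3 A_52_P432949, between -2.60 and -2.01 for the 5 Nrg1 probes and -1.19 for Tgfa A_51_P415126. On slide 5, TSP 5 and TSP 6 against TMP 3 gave -2.05 for the Erbb3 probe, between -2.43 and -1.08 for Nrg1 and -0.81 for Tgfa. These are differences of single arrays or pairs, with no test.

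The calls depended on the few CMP arrays. Without CMP 2 none of the 23 probes was called in CSP minus CMP, with adjusted p values from 0.0541 to 0.0609 for the 4 Nrg1 probes other than A_52_P158772. Without CMP 1 only Nrg1 A_52_P328064 and A_52_P369769 were called. With TSP 1 and TSP 2 also left out, the fits that dropped a further array gave between 6 and 13 calls. The share of all probes called in these fits is not given here.

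By pattern over the 18 arrays, the genes nearest to Erbb3 A_52_P432949 were Tcfcp2l1, Plekhb1 and Grhl2. Likeness was the root mean square difference between log2 ratios centred on each gene's own mean, and it was 0.358 to 0.425 for these 3, against a median of 1.78 over 19977 candidate genes. Nearest to Nrg1 A_52_P369769 were Tlr2, Grhl1 and Lrba (0.524 to 0.542, median 1.38), and nearest to Areg were A530065I17Rik, Cldn23 and Serpinb8 (0.606 to 0.685, median 1.40). Tgfa A_51_P415126 lay nearest to Osbpl9, Nt5e and Epha2 (0.272 to 0.30, median 0.907), and Btc to 9030419F21Rik and 2 further uncharacterised transcripts (0.381 to 0.499, median 1.04). For Erbb2, Egfr, Erbb4 and Hbegf the own SD over the arrays was 0.331 to 0.569. The nearest gene of each was, in that order, Rbpms, Adprh, Fv4 (named only in the description of its probe) and Clcn7. These are descriptions over arrays that share a reference and slides, with no test.

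Beyond the receptors and ligands, 77 genes of the pathway were listed, of which 72 were tested, each by its brightest probe. The lists were chosen with earlier results of these data known. Their counts, here and list by list below, are therefore descriptions and no test of enrichment. In CSP minus CMP 11 rose and 6 fell, or 23.6%, where 14.4% of 20426 genes were called, 7.35% as higher and 7.09% as lower. The median difference was 0.22, against 0.06 over all genes. Without TSP 1 and TSP 2, 9 rose and 5 fell in TSP minus TMP, or 19.4%, where 14% of all genes were called, 7.33% as higher and 6.72% as lower. None was called in either surgery comparison or in the interaction.

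Among the feedback inhibitors, which dampen signalling downstream of these receptors and of other receptor kinases, 5 of 17 rose and none fell, with a median difference of 0.72. Of all genes 7.35% were called as higher. Dusp4, a phosphatase that inactivates MAP kinases, averaged 2.38 ± 0.31 in CSP, against -1.25 ± 0.36 in CMP (SD), or 12.3-fold higher, adjusted p = 0.00896. Spry2 and Spry4, Sprouty inhibitors of receptor kinase signalling, were higher by 2.42 ± 0.55 and 1.95 ± 0.56 (SE, adjusted p = 0.0114 and 0.0291). Spry4 was above background on 4 of 6 CSP and 1 of 3 CMP arrays. In TSP 3 to TSP 6 against TMP all 3 were called as well, Dusp4 by 3.44 ± 0.27.

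Among transcripts known to be induced by the pathway, 4 of 16 rose and 1 fell, where 14.4% of all genes were called. Ptgs2, which encodes the inducible cyclooxygenase, was 9.5-fold higher in CSP (3.25 ± 0.73, adjusted p = 0.0106), and Egr3, an immediate early transcription factor, 4.84-fold higher (2.28 ± 0.52, adjusted p = 0.0111). Ccnd1, the cyclin D1 gene, was 7.39-fold lower (-2.88 ± 0.52, adjusted p = 0.00894), so that this list moved in both directions.

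**Figure D5:**
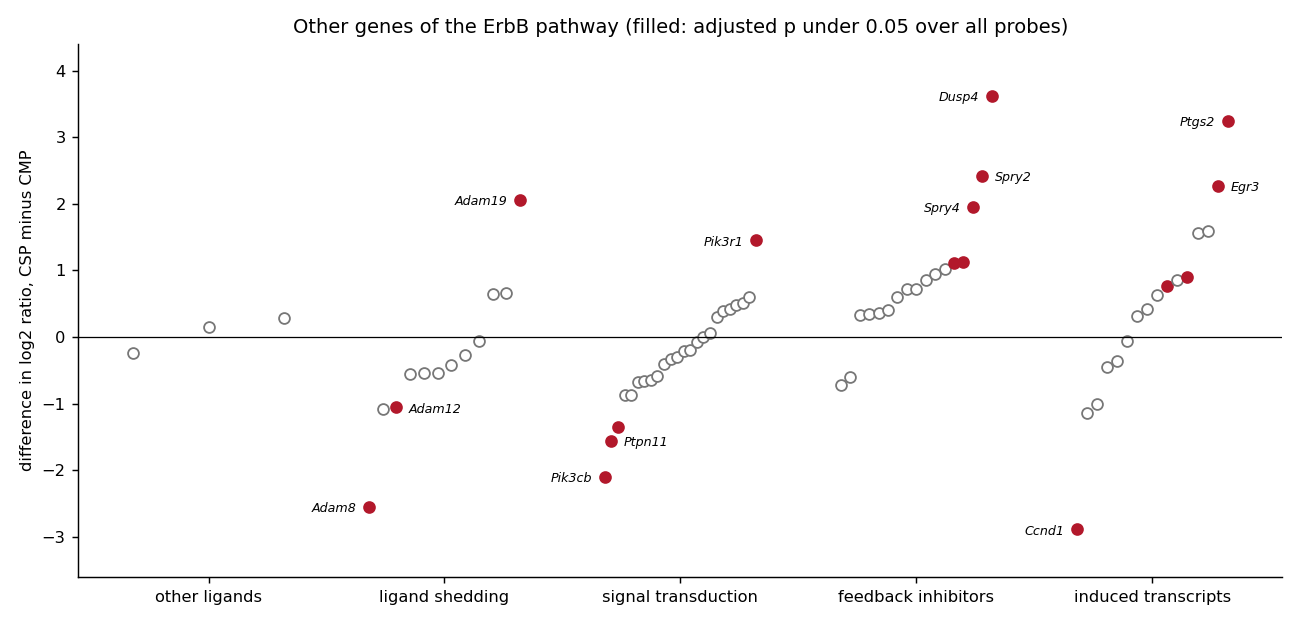
Difference in log2 ratio, CSP minus CMP (vertical axis), for the 72 tested genes of 5 pathway lists, each point a gene by its brightest probe and ordered by value within a list. Filled points have an adjusted p under 0.05, and up to 3 of them per list are named. Of the 17 feedback inhibitors 5 are filled, all above 0, whereas the other lists have filled points on both sides or none.

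Among 12 genes of ligand shedding 1 rose and 2 fell, where 14.4% of all genes were called. Adam19, a protease that can cleave neuregulin precursors, was 4.17-fold higher in CSP (2.06 ± 0.59, adjusted p = 0.0287). Adam8 and Adam12, metalloproteases of the same family, were lower by -2.55 ± 0.77 and -1.06 ± 0.31 (adjusted p = 0.0363 and 0.0306), Adam12 with 3 of 6 CSP and 2 of 3 CMP arrays above background.

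Of 24 signal transduction genes, 1 rose and 3 fell, where 14.4% of all genes were called. Pik3r1, a regulatory subunit of PI3 kinase, was higher by 1.45 ± 0.43 (adjusted p = 0.0318), and Pik3cb, a catalytic subunit, lower by -2.09 ± 0.53 (adjusted p = 0.0159). Ptpn11, the phosphatase SHP2 that links receptors to Ras, was lower by -1.56 ± 0.26 (adjusted p = 0.00894). The other ligands Egf, Epgn and Nrg4 were tested and not called, with differences between -0.24 and 0.29.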

How the data were processed

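Two-colour Agilent mouse arrays were read from the deposited scanner files. Per the file headers, these hold the raw intensity and background of each channel, processed signals and a log10 ratio of red over green; the headers name Agilent Feature Extraction 9.5.1.1, whereas the submitters' processing notes name version 8.5.1.1. The authors also deposited log2 ratios whose normalization is not given in the sources used here, and they served only as an alternative, by column label: 10 of 18 correlated most with the array of their label, 7 with another array of that group, and TSP 3 with a CSP array (r = 0.773, against 0.678 for its own). Raw signals were corrected with normexp (offset 50) and loess-normalized within arrays in limma 3.58.1 (R 4.3.3), with control spots at weight 0. Spots marked as faulty were left out, and spots of a probe were averaged. Probes entered the test with Cy5 signal well above background on 3 or more arrays. A call is a Benjamini-Hochberg adjusted p under 0.05 within a contrast. The procedure was tested on simulated data. The series' design text calls the samples biological replicates without naming animals, and precision is limited by how many arrays each group has.

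The members and lists were chosen with earlier results of these data known. All member probes are named, with up to 3 called genes of largest difference per list and comparison. Up to 3 genes nearest in pattern are named for members above background on at least 9 arrays. TMP and CMP of 1 number shared a slide, and their deviations from the group means correlated at 0.661, 0.718 and 0.796, so the numbers pair these samples. TSP and CSP of numbers 1 to 4 also shared a slide, but the TSP to CSP correlations ran only from -0.0189 to 0.465. Those samples were not taken as pairs. Side and main population arrays of 1 number never shared a slide. Alternatives were background correction, normalization, filter, unit of the fit, slide or replicate as a block, the arrays in the fit and the authors' values.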

Additional observations from a re-analysis of the deposited data

Results flagged for a closer look

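In 6 of the 46 groups of 5 or 6 arrays examined (23 probes in TSP and CSP), 1 array stood apart from the others by Dixon's criterion at 95%, which chance alone meets in about 1 in 20 groups. In each it was the highest. For Ereg A_51_P157223, TSP 2 read 1.94, with the next array at 0.73, and CSP 6 read 0.78, with the next at 0.17. For Ereg A_51_P171215, CSP 3 read 1.94, with the next at 0.94. For Tgfa A_52_P555423, CSP 4 read 1.72, with the next at 0.49. Among the Nrg1 probes, CSP 4 read 0.68 on A_52_P158772, with the next at -0.38, and CSP 6 read 1.12 on A_52_P52635, with the next at 0.32.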

How the results depend on the processing

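The count of member probes called in CSP minus CMP, 7 of 23, became 4 with scaling between arrays, 3 of 10 with the brightest probe per gene (fewer probes tested), 11 with the slide as a block and 11 without TSP 1 and TSP 2. Of all probes 13.2% were called in the main fit and 17.3% without TSP 1 and TSP 2. In the main fit 14.4% of genes were called by their brightest probe. Shares under the other settings are not given here, so those counts are not read as a result about the members. Leaving out 1 array at a time gave 0 to 9, and 6 to 13 with TSP 1 and TSP 2 also left out. For TSP minus TMP, 0 became 8 without TSP 1 and TSP 2, where 12.7% of all probes were called. It became 3 with the slide as a block in addition, a setting chosen after seeing the data. Leaving out 1 array at a time gave 0 to 1, and 4 to 10 with TSP 1 and TSP 2 also left out. The surgery comparisons and the interaction had 0 calls under every alternative run. The cause of these shifts was not tested. With the replicate block, whose numbers were taken to pair only TMP with CMP, the count in CSP minus CMP was 7 and in the other comparisons 0. Under that block, TSP minus TMP changed sign for Egfr A_52_P106259 (-0.3305), Erbb3 A_51_P488243 (0.0294), Areg A_52_P482897 (0.1946) and Hbegf A_51_P181565 (0.3217), none of them called. Hbegf A_51_P181565 also changed sign in CSP minus CMP with median centring (-0.3006) and the slide as a block (-0.1868, and -0.0887 without TSP 1 and TSP 2), and ranged from -0.0663 to 0.1951 over fits without 1 array. In TSP minus TMP it did so with the scanner's log ratio (0.0726), scaling between arrays (1.0204) and the authors' deposited values (0.0778, from columns of which 8 of 18 match another array's file best), and ranged from -0.1804 to 0.1422 without 1 array, and from -0.3891 to 0.1485 with TSP 1 and TSP 2 also left out. Erbb4 A_51_P283698 in TSP minus TMP changed sign with scaling (0.0154) and ranged from -0.4751 to 0.1506 without 1 array, and from -0.3936 to 0.2322 with TSP 1 and TSP 2 also left out. In CSP minus CMP it changed sign with the slide as a block and without TSP 1 and TSP 2 (0.069). Dim signal over background limits the kinase-region probes of Erbb3 and Erbb2 and the Ereg probes.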
